A study of Mus musculus with 8 samples.

Results

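Cells labelled as Ythdf2 conditional knockout (cKO) from irradiated and from untreated MC38 tumors were compared across all genes. A droplet barcode was kept with at least 500 gene UMIs (unique molecular identifiers, counted molecules), at least 200 genes, at most 25% mitochondrial UMIs and at least 20 hashtag UMIs. It was labelled cKO when the cKO hashtag B0302 held at least 4 times the UMIs of the wild-type (WT) hashtag B0301. This gave 6260 barcodes, 2284 from tumor control and 3976 from tumor IR, of 13262 tumor barcodes and 32121 barcodes of the whole series that passed the same filters and the hashtag minimum.

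Cells with the surface markers CD45+CD11b+Ly6Chi, by which the study defined monocytic myeloid-derived suppressor cells, were sorted from tumors and blood, with both genotypes mixed in each of 4 droplet libraries after hashtag staining. The cKO mice carried Ythdf2 fl/fl with Lyz Cre, so that deletion is driven in myeloid cells that use the lysozyme promoter, and the WT mice carried Ythdf2 fl/fl without Cre. All were young adult male and female mice on the C57BL/6J background with MC38, a mouse colon carcinoma line, growing under the skin of the flank. The IR group received 1 local dose of 20 Gy ionizing radiation and its cells were collected 3 days later, and the control group was not irradiated. Cells of several mice were pooled before loading. Irradiated and control cells labelled cKO were therefore 1 library each, without replicates, so no test of the difference was possible and no p-value is given. The intervals of single genes and of shares below are exact 95% intervals that cover counting error only. The range beside a list median runs from the median of the members' lower bounds to the median of their upper bounds. It is not a 95% interval of the median.

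YTHDF2 binds N6-methyladenosine (m6A) in mRNA and promotes the decay of the bound transcripts. Irradiation damages DNA, and nucleic acid that reaches the cytosol is detected by sensors such as cGAS and RIG-I, which induce type I interferon. Interferon acts through its receptor on factors such as STAT2 and IRF9, which bind a promoter element with the core letters of a repeated GAAA and switch on interferon-stimulated genes. Monocytes that enter a tumor lose Ly6C and take up macrophage genes such as those of complement C1q over time.

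The promoters of 4 interferon-stimulated genes with log2 ratios from 3.07 to 4.07 are printed to show this element, beside 2 of genes at the extremes that do not hold it. Each is RefSeq sequence of GRCm38.p6, 250 bases before to 50 bases after the start, 5′ to 3′ on the gene's strand. The motif GAAANNGAA or its reverse complement TTCNNTTTC is in capitals, and overlapping matches run together. Isg15 lies at chr4:156200769-156201068 on the minus strand, Ifit1 at chr19:34640639-34640938 on the plus strand, Ifit3 at chr19:34583279-34583578 on the plus strand and Rsad2 at chr12:26456403-26456702 on the minus strand. Slfn4, with the highest ratio of the named genes, lies at chr11:83174936-83175235 on the plus strand, and the proliferation gene Mki67 at chr7:135716330-135716629 on the minus strand.
Isg15: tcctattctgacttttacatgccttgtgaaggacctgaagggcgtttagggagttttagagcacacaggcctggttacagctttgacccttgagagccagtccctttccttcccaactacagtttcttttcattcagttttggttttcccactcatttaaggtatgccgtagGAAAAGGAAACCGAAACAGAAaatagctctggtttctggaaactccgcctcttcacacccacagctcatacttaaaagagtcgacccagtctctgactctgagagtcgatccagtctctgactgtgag
Ifit1: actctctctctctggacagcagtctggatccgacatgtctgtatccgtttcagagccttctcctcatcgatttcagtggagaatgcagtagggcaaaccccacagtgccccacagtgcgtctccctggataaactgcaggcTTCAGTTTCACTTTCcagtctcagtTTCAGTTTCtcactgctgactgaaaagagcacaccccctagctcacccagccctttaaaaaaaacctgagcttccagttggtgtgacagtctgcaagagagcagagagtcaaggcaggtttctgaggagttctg
Ifit3: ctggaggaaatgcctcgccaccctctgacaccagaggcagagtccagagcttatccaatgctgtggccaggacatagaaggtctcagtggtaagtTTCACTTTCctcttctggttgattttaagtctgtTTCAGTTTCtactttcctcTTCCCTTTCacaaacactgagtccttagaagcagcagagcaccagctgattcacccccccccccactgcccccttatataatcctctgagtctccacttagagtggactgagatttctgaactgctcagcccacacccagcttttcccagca
Rsad2: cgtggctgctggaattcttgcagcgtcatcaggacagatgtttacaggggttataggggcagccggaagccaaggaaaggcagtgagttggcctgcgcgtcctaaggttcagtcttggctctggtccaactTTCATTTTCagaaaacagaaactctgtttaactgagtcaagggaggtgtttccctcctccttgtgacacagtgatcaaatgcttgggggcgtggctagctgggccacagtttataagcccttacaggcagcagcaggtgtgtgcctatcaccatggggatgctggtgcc
Slfn4: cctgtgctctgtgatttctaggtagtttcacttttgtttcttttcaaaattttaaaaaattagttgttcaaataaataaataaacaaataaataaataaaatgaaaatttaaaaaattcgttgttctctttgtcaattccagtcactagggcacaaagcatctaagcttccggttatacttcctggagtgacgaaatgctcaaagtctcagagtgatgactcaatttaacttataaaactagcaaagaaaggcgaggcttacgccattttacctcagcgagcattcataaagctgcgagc
Mki67: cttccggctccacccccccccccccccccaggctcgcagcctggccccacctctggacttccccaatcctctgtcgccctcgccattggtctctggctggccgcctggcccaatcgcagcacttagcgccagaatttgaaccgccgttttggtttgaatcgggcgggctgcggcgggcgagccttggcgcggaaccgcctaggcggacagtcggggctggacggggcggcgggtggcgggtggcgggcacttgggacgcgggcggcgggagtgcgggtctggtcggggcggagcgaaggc
Isg15, Ifit1 and Ifit3 held 3 matches each, Rsad2 held 1, and Slfn4 and Mki67 held 0 in this window. Of 48 interferon-stimulated genes with a promoter in the table, 24 held the motif (50%). It stood in 15 of 22 promoters of the interferon-γ response list (68.2%) and in 2 of 38 promoters of the proliferation list (5.26%), against 2317 of all 27025 promoters of the same length (8.57%). Of the 15 genes with the highest ratio, 14 had a promoter and 7 held the motif, and of the 15 lowest, 12 had a promoter and 3 held it. A match of these letters is a description and not a measured binding site.

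The tumor control and tumor IR matrices held 87703837 and 81601307 gene UMIs, of which the cells labelled cKO held 25098822 and 26570770. These cells had a median of 8534.5 UMIs and 2425.5 genes in control and of 6196.5 UMIs and 1974.5 genes after IR. The hashtag minimum removed many tumor barcodes, since 5418 of 12707 and 7844 of 12763 otherwise passing barcodes met it. Of the barcodes labelled cKO, 63 and 56 had a hashtag ratio between 4 and 5, and 132 and 81 barcodes with a ratio between 3 and 4 were just outside the limit.

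The tumor matrices shared barcodes. Of the cells labelled cKO in control, 2206 also had at least 500 gene UMIs in the IR matrix, and of those labelled cKO after IR, 3856 did so in the control matrix. The other matrix held a median of 0.454 and 0.589 times the UMIs of the cell's own matrix, against 0 for the blood libraries. Hashtags met the minimum in both tumor matrices for only 81 and 78 of these barcodes, and 14 barcodes were labelled cKO in both. A barcode was therefore assigned to the library whose hashtags it carried. When the same 2284 and 3976 barcodes were read from the other tumor matrix, the median log2 ratio of the interferon-stimulated genes was 2.5 in place of 2.49. It was not tested how the cells came to be in both matrices.

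The targeted gene went against the label. Ythdf2 was at 374.0 CPM (summed UMIs scaled to counts of 1e6 per library; 366.5 to 381.6) in control cells labelled cKO and at 339.1 CPM after IR, above the 50.9 and 47.41 CPM of the cells labelled WT. These are tags of the 3′ end, and where the end lies outside the deleted part they check nothing about the deletion or the protein. Lyz2, the lysozyme gene that carries the Cre as a knock-in, was at 114.5 and 141.6 CPM in the cells labelled cKO, against 6448 and 5157 CPM in those labelled WT. Its neighbour Lyz1 was at 154.8 and 108.1 CPM in the cells labelled cKO and at 5.002 and 2.175 CPM in those labelled WT. The paralogs Lyz1 and Lyz2 can share reads, so their split is uncertain. The hashtag classes thus differed at these 3 genes in both libraries, and the cells are called by their label throughout.

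The sort was for leukocytes, but the control library held barcodes without leukocyte genes. Barcodes were called leukocyte-poor under 2 UMIs per 1000 from a list of 13 pan-leukocyte genes, and fibroblast-marker-rich at 5 or more UMIs per 1000 from 21 fibroblast genes. Together these made up 272 of 2284 barcodes in control (11.91%, 10.61 to 13.31) and 64 of 3976 after IR (1.61%, 1.24 to 2.05). They were large, with medians of 26386.5 and 14011 UMIs, and so gave 29.53% of all UMIs of the control sum and 5.36% of the IR sum. The limits cut a range rather than a type: 47 and 82 barcodes lay between 1 and 4 pan-leukocyte UMIs per 1000, and 180 and 27 between 2.5 and 10 fibroblast UMIs per 1000. The remaining 2012 and 3912 are called leukocyte barcodes. Comparisons are given for all barcodes labelled cKO, for the leukocyte barcodes or for both, and values of many single genes are given for 1 set only. Doublets with other cells were not tested as their source.

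Among all barcodes labelled cKO, C1q genes marked a large part. Barcodes with at least 1 UMI per 1000 from C1q genes, called C1q-bearing, made up 982 of 2284 in control (42.99%, 40.95 to 45.05) and 1133 of 3976 after IR (28.5%, 27.1 to 29.93), with 182 and 418 barcodes between 0.5 and 2 per 1000. Barcodes rich in neutrophil genes, at 20 UMIs per 1000 or more, were 23 (1.01%, 0.64 to 1.51) and 216 (5.43%, 4.75 to 6.18). Neither of these classes was limited to leukocyte barcodes, and classes can overlap. The leukocyte barcodes in neither class, 1016 and 2580, are called C1q-low. These shares rest on the limits, on the gate and on 1 library each, and whether they would differ between other pools of mice was not tested.

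**Figure D1:**
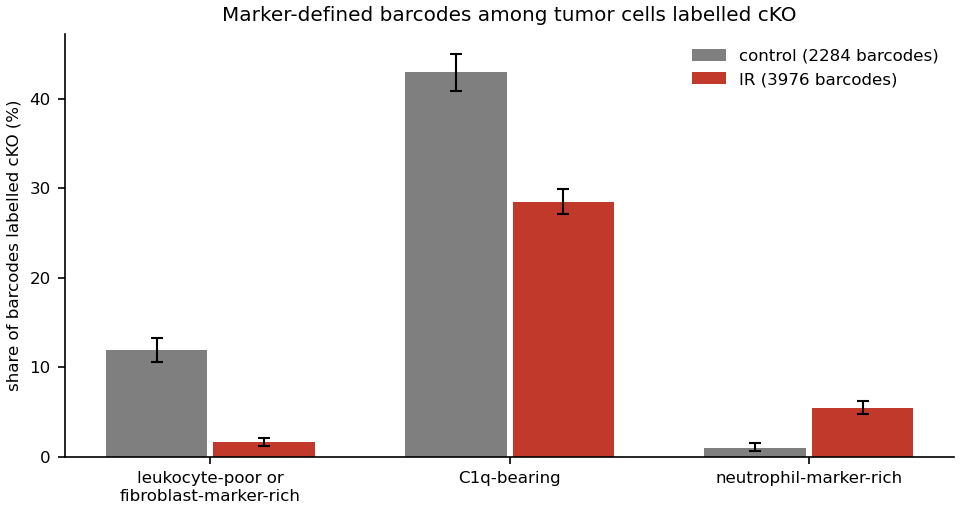
Share of tumor barcodes labelled cKO (percent) that were leukocyte-poor or fibroblast-marker-rich, C1q-bearing or neutrophil-marker-rich, in control (grey, 2284 barcodes) and IR (red, 3976 barcodes); bars are shares and lines exact 95% intervals. The first and second classes had the higher share in control and the third after IR.

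The labelled monocyte phenotype was checked against its markers. Ptprc, which encodes CD45, was at 311.6 CPM in control and 629.5 CPM after IR, and Itgam, which encodes CD11b, at 332.2 and 641.3 CPM. Their log2 ratios were 1.01 and 0.95 in all barcodes, and 0.59 and 0.53 in leukocyte barcodes. Ly6c2, a gene of the Ly6C antigen, was at 159.8 CPM in control and 1152 CPM after IR, a log2 ratio of 2.85 (2.80 to 2.90) that stayed at 2.43 (2.38 to 2.48) in leukocyte barcodes. In control, Ly6c2 had a UMI in 32.3% of the 2284 barcodes. It had one in 32.9% of the 2222 barcodes with enough UMIs for thinning, and in 13.2% of these once each was thinned to 1000 UMIs. Many control cells labelled cKO thus had no Ly6c2 UMI although they were sorted as Ly6Chi.

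Across all genes with at least 100 UMIs in both sums together, more ratios were past a 2-fold limit (log2 of 1) downward than upward. Of 10771 genes counted in all barcodes, 562 were higher (5.22%) and 1803 lower (16.7%) after IR, and the median log2 ratio was −0.18. In leukocyte barcodes, 384 of 9744 were higher (3.94%) and 641 lower (6.58%), with a median of −0.07. The 344 genes higher in both were 61.2% of the first list and 89.6% of the second, and the 565 lower in both were 31.3% and 88.1%. Scaling moved the split: under TMM factors, genes that were higher made up 37.3% of those past the limit in place of 23.8% for all barcodes, and 47.9% in place of 37.5% for leukocyte barcodes. TMM factors moved the median of all genes to 0.03 and 0.05. A ratio near −0.18 in all barcodes is therefore the level of the typical gene. In sums over barcodes, fewer cells of a kind and less RNA per cell cannot be told apart. All fitted ratios carry a prior of 1 UMI.

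The cells labelled WT and the blood give the setting for these counts. In leukocyte barcodes labelled WT of the same 2 tumor libraries (1053 and 2511), 285 of 8726 genes were higher (3.27%) and 370 lower (4.24%) after IR, and in all barcodes labelled WT 277 of 9362 were higher (2.96%) and 207 lower (2.21%). In blood cells labelled cKO (4014 and 3936), 40 of 9593 were higher (0.417%) and 96 lower (1%). Contrasts within the tumor share their libraries, and no difference between contrasts was tested.

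The interferon-stimulated genes stood far above the other genes. Of 57 measured members of the list, 56 were more than 2-fold higher after IR and 0 lower, both in all barcodes and in leukocyte barcodes, against 5.22% and 3.94% of all genes higher. The median log2 ratio was 2.49 (2.38 to 2.61) in all barcodes and 2.28 (2.25 to 2.37) in leukocyte barcodes, and with TMM factors 2.70 and 2.39. The list's summed level went from 4565 to 20937 CPM, and from 5371 to 21750 CPM in leukocyte barcodes. The member under the limit was Ly6e, at 0.99. Trex1 was listed at 0 UMIs in both libraries and was not counted.

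Slfn4, a Schlafen family gene of myeloid cells, had the highest ratio. It held 140 UMIs in control and 6188 after IR, or 5.58 and 232.9 CPM, a log2 ratio of 5.37 (5.14 to 5.64). Rsad2, which encodes viperin, an enzyme that makes a chain-terminating nucleotide, was at 58.41 and 981.3 CPM with a ratio of 4.07 (3.99 to 4.15). Its neighbour Cmpk2, a mitochondrial nucleotide kinase that supplies the substrate of viperin, was at 9.12 and 139.7 CPM with a ratio of 3.93 (3.74 to 4.14). Both lie on chromosome 12, Rsad2 at 26442746 to 26456452 and Cmpk2 at 26469204 to 26479837. In leukocyte barcodes the ratios of these 3 genes were 4.95, 3.68 and 3.69, and between 3.48 and 5.76 in the C1q-bearing and the C1q-low barcodes taken apart.

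The Ifit genes, whose proteins bind RNA that lacks host cap marks, lie side by side on chromosome 19. Ifit1 (34640871 to 34650009) was at 16.1 and 251.4 CPM, a log2 ratio of 3.96 (3.82 to 4.11). Ifit2 (34550694 to 34576419) had a ratio of 3.83 and Ifit3 (34583531 to 34588731) one of 4.02, from 13.31 to 216.5 CPM. Ifit3b at 3.97 and Ifit1bl1 at 4.39 are near copies of these genes, so reads may be split among them. In leukocyte barcodes the ratios of Ifit1, Ifit2 and Ifit3 were 3.93, 3.65 and 4.19, close to those in all barcodes.

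Isg15, a ubiquitin-like modifier, was at 259.3 CPM in control and 2174 CPM after IR, a log2 ratio of 3.07 (3.03 to 3.11). Usp18, the protease that removes ISG15, had a ratio of 3.45. Irf7, the factor that widens the interferon-α response, was at 51.76 and 505.9 CPM with a ratio of 3.29 (3.21 to 3.37). Stat2 and Irf9, whose proteins take part in binding the promoter element, were also higher, at 2.46 and 1.47. Ifitm3, a membrane protein that blocks virus entry, was at 1094 and 3399 CPM with a ratio of 1.63. The members' log2 ratios thus ran from 0.99 to 5.37.

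**Figure D2:**
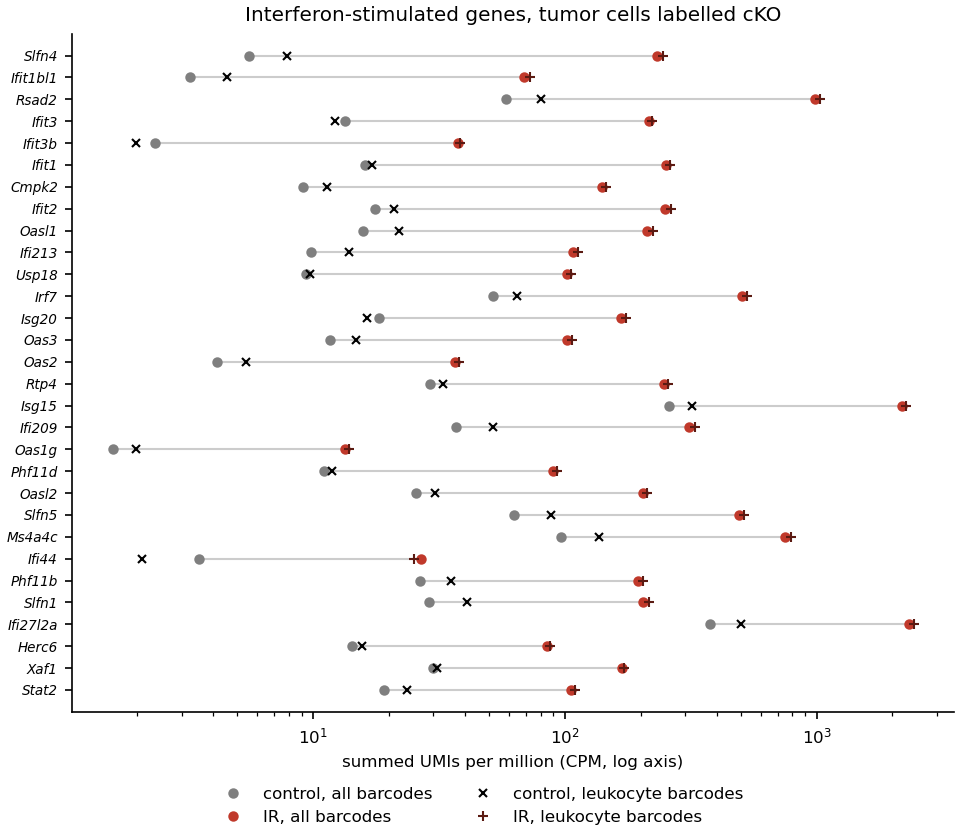
Summed level (CPM, log axis) of the 30 interferon-stimulated genes with the highest log2 ratios in tumor cells labelled cKO, ordered by that ratio; grey and red points are control and IR over all barcodes, crosses and plus signs over leukocyte barcodes. Every gene drawn was higher after IR, in all barcodes as in leukocyte barcodes.

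The difference was spread over the cells and was not limited to a few of them. When each barcode was thinned to 1000 UMIs, the median barcode labelled cKO held 3 UMIs of the list in control (quartiles 2 and 7, 2222 barcodes) and 18 after IR (9 and 30, 3830 barcodes). The 62 and 146 barcodes with fewer UMIs were left out, and the unthinned medians per 1000 UMIs were 3.33 and 17.88. C1q-bearing barcodes went from a median of 3 (2 to 5) to 17 (9 to 29) and C1q-low ones from 5 (2 to 11) to 18 (10 to 30). Neutrophil-marker-rich barcodes stood at 5 in control (23 barcodes) and 25 after IR (208 barcodes). Leukocyte-poor or fibroblast-marker-rich barcodes stood at 2 (266 barcodes) and 5 (51 barcodes). Isg15 had a UMI in 17.1% of thinned barcodes in control and in 58.9% after IR, and in 48.6% and 82.6% of the same barcodes before thinning. Free RNA in the droplets can add interferon UMIs to any cell, and its part was not tested.

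**Figure D3:**
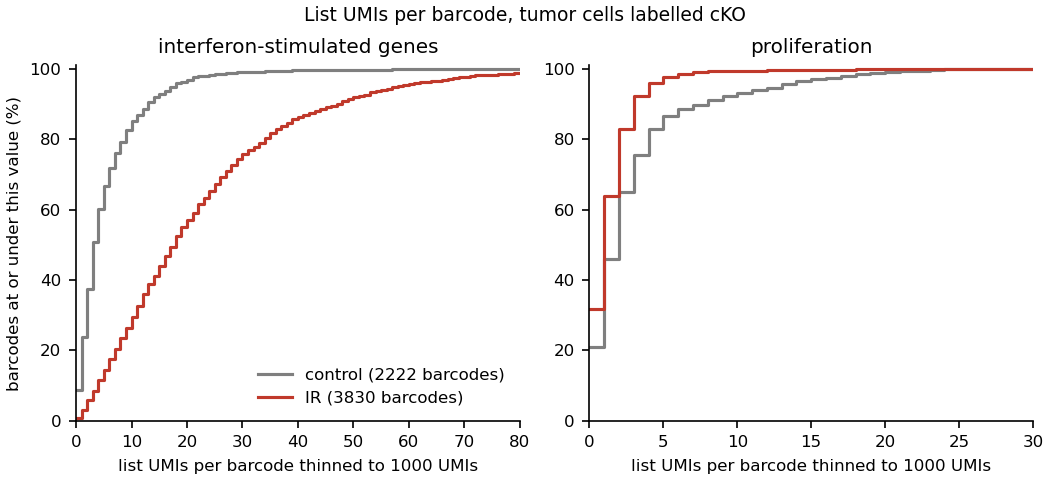
Share of barcodes (percent) at or under a given number of list UMIs after each barcode was thinned to 1000 UMIs, for interferon-stimulated genes (left) and the proliferation list (right); grey is control (2222 barcodes) and red IR (3830 barcodes). For the interferon list the IR curve lies to the right over its whole length (medians 3 and 18), and for the proliferation list the control curve has the longer tail.

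The size of the difference varied between sets of barcodes. The list's median log2 ratio was 2.60 (2.51 to 2.85) in C1q-bearing and 1.94 (1.81 to 2.15) in C1q-low barcodes. In leukocyte barcodes labelled WT the list's median was 1.90 (1.69 to 2.11), with 52 of 57 members higher, against 3.27% of all genes. The summed level there went from 7149 to 23572 CPM. In blood cells labelled cKO the median was 0.39 (0.26 to 0.50), with 2 of 56 members higher, against 0.417% of all genes. Rsad2 in leukocyte barcodes was at 80.45 and 1034 CPM in cells labelled cKO and at 172.8 and 1163 CPM in those labelled WT. Slfn4 was at 7.86 and 244.9 CPM against 15.5 and 320.4 CPM. For these genes the irradiated levels of both labels lay closer together than the control levels as a fold, but not in CPM. The difference of the ratios was not tested.

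Among 15 measured nucleic acid sensors and their adaptors, 8 were higher and 0 lower in all barcodes, and 5 and 0 in leukocyte barcodes, with medians of 1.0 and 0.75. Of all genes, 5.22% were higher in all barcodes and 3.94% in leukocyte barcodes. The RNA sensors Ddx58 (RIG-I) and Ifih1 (MDA5) had log2 ratios of 2.47 and 2.05. Zbp1, a sensor of Z-form nucleic acid that can start necroptosis, was at 442.6 CPM after IR with a ratio of 2.13. The DNA sensor Cgas was at 9.80 and 19.68 CPM with a ratio of 1.0 (0.78 to 1.23), and its adaptor Tmem173 (STING) had a ratio of 0.33. The adaptor Mavs at −0.44 and the factor Irf3 at −0.11 did not reach the limit. Beside these sensors, Dhx58, the RNA-editing enzyme Adar, the nucleotide hydrolase Samhd1 and the Toll-like receptor adaptor Myd88 were past the limit in all barcodes. Their ratios were 2.11, 1.41, 1.24 and 1.01. In leukocyte barcodes Cgas, Samhd1 and Myd88 were under the limit, at 0.75, 0.87 and 0.75.

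The interferon-γ response list had 21 of 29 measured members higher and 0 lower in all barcodes, and 14 and 0 in leukocyte barcodes, with medians of 1.33 (1.14 to 1.46) and 0.96 (0.89 to 1.19). Nos2, the inducible nitric oxide synthase, was at 66.3 and 335.5 CPM with a ratio of 2.34 (2.26 to 2.42) and of 1.95 in leukocyte barcodes, against 0.69 in those labelled WT. Cd274, which encodes the checkpoint ligand PD-L1, was at 101.2 and 332.6 CPM with a ratio of 1.72 (1.65 to 1.78). Fcgr1, a high-affinity Fc receptor, had a ratio of 1.84, and the GTPases Irgm1 and Igtp had 1.70 and 1.63. The chemokines of the list parted. Cxcl10 was at 865.6 and 1611 CPM with a ratio of 0.90, and Cxcl9, which depends on interferon-γ more than Cxcl10 does, was at 491.7 and 329.5 CPM with a ratio of −0.58 (−0.62 to −0.54). In leukocyte barcodes Cxcl9 stood at −0.98 in cells labelled cKO and −1.46 in those labelled WT, and Cxcl10 at 0.64 and 1.75.

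Some genes of antigen presentation by MHC class I were higher. Of 24 class I genes, 9 were higher and 0 lower in all barcodes, and 4 and 0 in leukocyte barcodes, against 5.22% and 3.94% of all genes higher, with medians of 0.68 and 0.53. The nonclassical genes H2-T24, H2-T22 and H2-T23 led with log2 ratios of 2.25, 1.74 and 1.65. Reads of these near copies can be split among them. Tap1, which pumps peptides into the endoplasmic reticulum, had a ratio of 1.16, and B2m, the light chain, one of 0.79, from 2618 to 4512 CPM. None of 12 class II genes passed the limit in either direction. Their median was −0.02 in all barcodes, 0.19 with TMM factors, −0.44 in leukocyte barcodes and −0.33 there with TMM factors, so its sign depends on the barcodes and the scaling. Cd74, the invariant chain, was at 8413 and 5887 CPM in leukocyte barcodes, and the class II median in leukocyte barcodes labelled WT was −0.59.

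Proliferation genes were lower after IR. Of 47 measured members, 40 were more than 2-fold lower and 0 higher in all barcodes, against 16.7% of all genes lower. In leukocyte barcodes 37 of 45 were lower, against 6.58%. The median log2 ratio was −2.13 (−2.35 to −1.89) in all barcodes and −2.47 (−2.77 to −2.12) in leukocyte barcodes. Mki67, the marker of cycling cells, was at 104.7 CPM in control and 15.47 CPM after IR, a ratio of −2.76 (−2.91 to −2.61), and at 78.36 and 6.32 CPM in leukocyte barcodes. Top2a, the topoisomerase of dividing cells, had ratios of −2.42 and −3.24, and Birc5, which encodes the mitotic protein survivin, of −2.73 and −4.39. Pclaf, a partner of PCNA, had −3.06 and −4.06, and Stmn1, a microtubule regulator, −2.65 and −3.51. Within the limit were 7 members, among them the replication clamp Pcna at −0.96, the helicase subunit Mcm4 at −0.94 and the licensing factor Cdt1 at −0.42.

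Counted per barcode, the difference was larger in the upper tail than at the median, which was lower as well. In barcodes thinned to 1000 UMIs the median went from 2 UMIs (1 to 3) in control to 1 (0 to 2) after IR, whereas the 90th percentile went from 8 to 3 and the mean from 3.0 to 1.43. C1q-bearing barcodes had a mean of 3.03 and 1.10, and C1q-low ones 2.0 and 1.51. The list's median ratio was −2.87 in C1q-bearing and −1.23 in C1q-low barcodes. Mki67 stood at −4.62 in the former and −2.09 in the latter. In leukocyte barcodes labelled WT the median was −1.63, with 24 of 32 members lower, against 4.24% of all genes. Mki67 stood there at 35.66 and 11.22 CPM. Over all barcodes labelled WT the median was −0.35, with 6 of 45 members lower, against 2.21% of all genes. Mki67 stood there at 54.04 and 33.46 CPM, a ratio of −0.69. In blood cells labelled cKO the list's median was 0.36, with 9 of 24 members higher, against 0.417% of all genes.

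Many genes of ribosome production were lower as well. Of 25 ribosome biogenesis genes, 17 were lower and 0 higher in all barcodes and 15 and 0 in leukocyte barcodes, against 16.7% and 6.58% of all genes lower. The medians were −1.33 (−1.44 to −1.18) and −1.02 (−1.23 to −0.97). With TMM factors 10 were lower in leukocyte barcodes. Ncl, nucleolin, was at 835.2 and 359.7 CPM with ratios of −1.22 and −1.02. Dkc1, the pseudouridine synthase of small nucleolar particles, had −2.0 and −1.62. Myc, a regulator of the set, had −1.86 in all barcodes and −0.87 in leukocyte barcodes, where it was below the limit. The 81 measured ribosomal protein genes were at a median of −0.56 and took 197706 CPM in control and 130322 CPM after IR. In thinned barcodes they gave a median of 167 and 112 of 1000 UMIs. Over all barcodes labelled WT the ribosome biogenesis median was −0.69, with 1 of 24 lower, against 2.21% of all genes. Leukocyte barcodes labelled WT had medians of −0.86 for ribosome biogenesis and −0.56 for ribosomal proteins, and blood cells labelled cKO of 0.07 and 0.07.

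**Figure D4:**
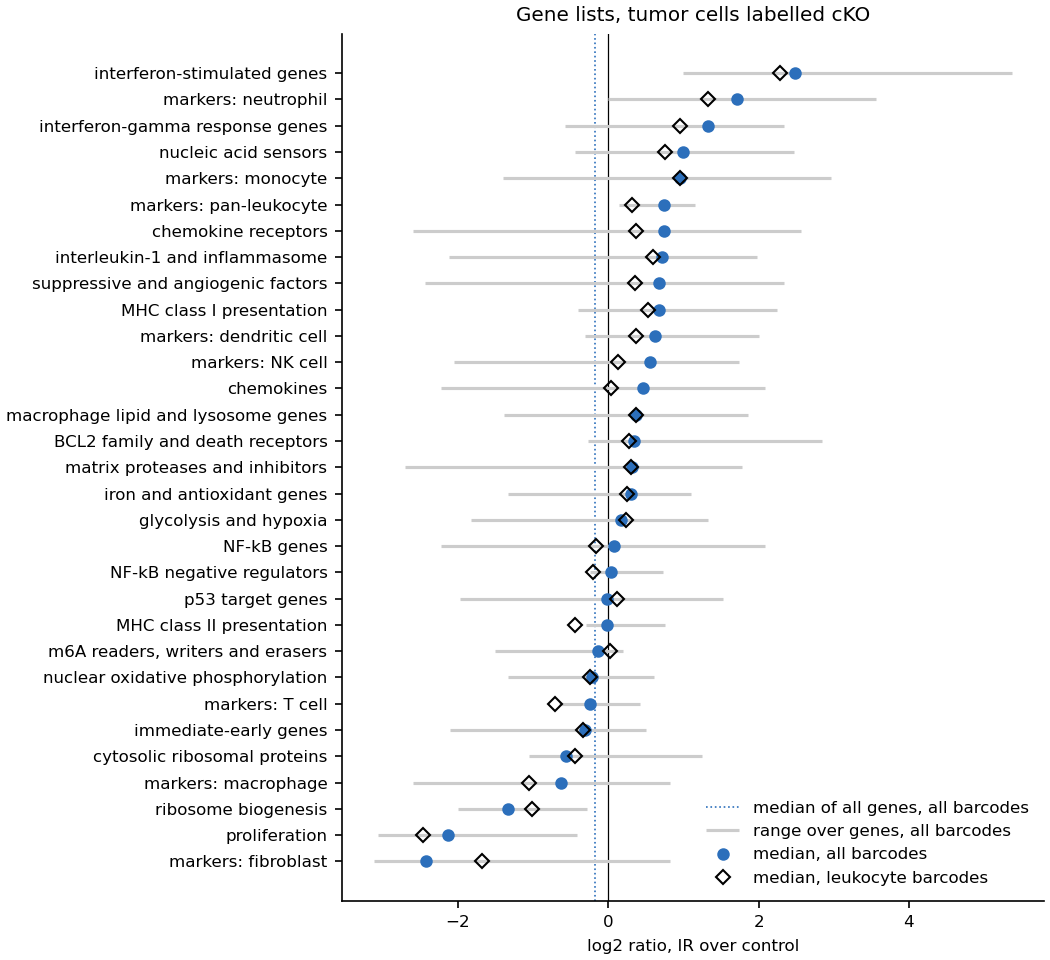
Median log2 ratio of IR over control for each gene list with at least 5 measured genes, in all tumor barcodes labelled cKO (blue points, with grey lines from the lowest to the highest gene) and in leukocyte barcodes (open diamonds); the dotted line marks the median of all genes, −0.18. Interferon-stimulated genes stood highest at 2.49, and the proliferation and fibroblast marker lists lowest at −2.13 and −2.42.

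Inflammatory genes driven by NF-κB showed no common direction. Of 34 members, 1 was higher and 3 lower in all barcodes, and 1 and 5 in leukocyte barcodes. The shares over all genes were 5.22% higher and 16.7% lower in all barcodes, and 3.94% and 6.58% in leukocyte barcodes. The list's median was 0.08 in all barcodes (0.29 with TMM factors) and −0.17 in leukocyte barcodes (−0.06 with TMM factors). Its sign thus depends on which barcodes enter. Tnf was at 634.5 CPM in control leukocyte barcodes and 200.6 CPM after IR, a log2 ratio of −1.66 (−1.71 to −1.61). Il1a, at 804.2 and 384.7 CPM, had a ratio of −1.06, and Tnfaip3, which encodes the NF-κB inhibitor A20, one of −1.05. Tnip3, a partner of A20, had −1.69. Cxcl1, a neutrophil attractant, was at 664.3 and 202.1 CPM with a ratio of −1.72, whereas its paralog Cxcl3 was at 338.3 and 1076 CPM with a ratio of 1.67. The 2 most abundant members, Il1b and Cxcl2, stood at −0.27 and −0.36.

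Beside these, the leukocyte barcodes labelled WT had other values for the same genes. Tnf was at 225.8 and 260.4 CPM there with a log2 ratio of 0.21, Il1a at 365.0 and 457.1 CPM with 0.32, and Il6 at 32.51 and 59.79 CPM with 0.88, against −0.97 for Il6 in those labelled cKO. Nfkbia, the inhibitor IκBα, stood at 0.35 against −0.57 and Cxcl2 at 0.78 against −0.36. Control cells labelled cKO held the higher level of Tnf, Il1a and Il6, and after IR the levels of both labels were nearer. Cxcl3, at 1.89, and Tnip3, at −1.24, had the same sign in both labels. The list's median was 0.19 in cells labelled WT. The list of 5 negative regulators of NF-κB that the study discusses, Socs3 and Tnfaip8l2 among them, had a median of 0.04 in all barcodes and −0.21 in leukocyte barcodes.

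Of 21 measured chemokines, 5 were higher and 2 lower in all barcodes, and 3 and 2 in leukocyte barcodes, where the median was 0.04. The shares over all genes were 5.22% higher and 16.7% lower in all barcodes, and 3.94% and 6.58% in leukocyte barcodes. Ccl22, which attracts regulatory T cells, was at 25.39 and 79.38 CPM in leukocyte barcodes with a log2 ratio of 1.64, and Ccl5 at 365.6 and 583.9 CPM with 0.68. Ccl2, the ligand that draws monocytes, was at 2062 and 2125 CPM with a ratio of 0.04, and its receptor Ccr2 at 463.5 and 452.1 CPM with −0.04. Of 13 chemokine receptors, 4 were higher and 1 lower there. Cx3cr1, the fractalkine receptor of patrolling monocytes and of macrophages, was at 120.5 and 14.71 CPM with a ratio of −3.03 (−3.20 to −2.87). Ccr7, the lymph node homing receptor, stood at 1.52 and Cxcr2, a neutrophil receptor, at 2.19.

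Several monocyte markers were higher and many macrophage markers lower after IR. Of 13 monocyte genes, 6 were higher and 1 lower in leukocyte barcodes, and of 17 macrophage genes 0 and 10, with medians of 0.95 and −1.05. Of all genes in leukocyte barcodes, 3.94% were higher and 6.58% lower. Plac8, which classical monocytes express, stood at 1.78, with 882.4 and 3023 CPM. The lower monocyte gene was Chil3, at −1.12 (482.1 and 221.7 CPM) in cells labelled cKO and 0.39 in those labelled WT. Csf1r at −0.31, F13a1 at −0.25, Ccr2 at −0.04 and Ly6c1 at 0.05 were among the 6 within the limit. Apoe, a lipid carrier of macrophages, was at 2296 and 651.5 CPM with a log2 ratio of −1.82, Folr2 at −1.91 and the mannose receptor Mrc1 at −1.44, which stood at 0.20 in C1q-low barcodes. Fcrls, an Fc receptor-like gene of resident macrophages, was at 113.1 and 1.91 CPM, a ratio of −5.85 (−6.33 to −5.48). Leukocyte barcodes labelled WT had medians of 1.08 for the monocyte and −1.15 for the macrophage list. The share of C1q-bearing barcodes was lower after IR, as given above, and its part in these values was not tested. Within the C1q-low barcodes the macrophage median was 0.04 and the monocyte median 0.79. The C1q genes by which these barcodes were chosen are members of the macrophage list. The macrophage median there therefore cannot show the part of that share.

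Neutrophil genes were higher after IR, with 13 of 14 measured members past the limit in all barcodes and 10 of 14 in leukocyte barcodes. Of all genes, 5.22% and 3.94% were higher. The list's summed level went from 706.8 to 2531 CPM. S100a8, a calcium-binding protein of neutrophils, was at 79.76 and 416.8 CPM with a log2 ratio of 2.39 and had a ratio of 0.64 in C1q-low barcodes, from which the neutrophil-marker-rich ones had been removed. Cstdc4, Asprv1 and Stfa2l1 had ratios of 4.24, 4.23 and 3.56, and Cstdc4 and Stfa2l1, stefin A family genes, have near copies whose reads may be split. The neutrophil list's median in C1q-low barcodes was 0.49, against 1.71 in all barcodes.

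The suppressive and angiogenic factors parted. In leukocyte barcodes 5 of 28 were higher and 6 lower, against 3.94% and 6.58% of all genes. The list's median was 0.35, against 0.68 in all barcodes. Beside Nos2 and Cd274, Thbs1 (thrombospondin, 880.7 and 1879 CPM), Pdcd1lg2 (PD-L2) and Lgals9 (galectin) were higher, at log2 ratios of 1.09, 1.14 and 1.13. Il10, the suppressive cytokine, was at 25.55 and 3.50 CPM, a ratio of −2.85 (−3.21 to −2.54), and the growth factor Vegfb stood at −1.75. Arg1, arginase, was at 3519 and 4407 CPM with a ratio of 0.32 (0.31 to 0.34), and Vegfa at 389.3 and 491.4 CPM with 0.34. In leukocyte barcodes labelled WT Il10 stood at −2.28 and Arg1 at 0.44.

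Genes of the p53 response and of cell death showed few ratios past the limit. Of 24 p53 target genes, 2 were higher and 3 lower in all barcodes, and 3 and 0 in leukocyte barcodes, with medians of −0.02 (0.18 with TMM factors) and 0.11. In all barcodes these counts lie near the 5.22% higher and 16.7% lower among all genes, and in leukocyte barcodes the shares over all genes were 3.94% and 6.58%. Cdkn1a, the cell cycle inhibitor p21, was at 873.6 and 1462 CPM with a log2 ratio of 0.74 and of 0.46 in leukocyte barcodes. Phlda3, an AKT inhibitor, stood at −1.08 in all barcodes and at 2.38 (1.92 to 2.92) in leukocyte barcodes, from 2.26 to 11.97 CPM. Tnfsf10, the death ligand TRAIL, was at 1.59 and 11.74 CPM with a ratio of 2.85 (2.40 to 3.39), and Mlkl, the pore protein of necroptosis, stood at 0.55 in all and 1.68 in leukocyte barcodes. These were, with Casp8 at 1.06 in all barcodes, the members of the 21 death genes past the limit in either set.

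Interleukin-1 and inflammasome genes had a median of 0.72 in all barcodes, with 6 of 14 higher and 1 lower. For the lists of this paragraph, the shares over all genes in all barcodes were 5.22% higher and 16.7% lower. Il18, a cytokine matured by caspase-1, was at 13.71 and 54.12 CPM with a log2 ratio of 1.98, and its inhibitor Il18bp stood at 1.83. In leukocyte barcodes these 2 genes remained past the limit, at 1.84 and 1.52. Of 23 lipid and lysosome genes, 6 were higher and 2 lower, led by the cholesterol exporter Abcg1 at 1.86 and the lipid droplet protein Plin2 at 1.46. Of 33 glycolysis and hypoxia genes, 3 were higher and 1 lower, Hilpda and Hif1a being at 1.32 and 1.08 in all barcodes and at 0.93 and 0.83 in leukocyte barcodes. Of 15 matrix proteases and inhibitors, 6 were higher and 4 lower, from Mmp13 at 1.78 to Mmp2 at −2.70. Fth1, ferritin heavy chain, was at 12988 and 26754 CPM, a ratio of 1.04 that was 0.68 in leukocyte barcodes, and no iron or antioxidant gene was past the limit there. Of 24 immediate-early genes 0 were higher and 4 lower in all barcodes, and 0 and 1 in leukocyte barcodes, near the 16.7% and 6.58% of all genes lower. The 85 nuclear genes of oxidative phosphorylation had a median of −0.22.

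The m6A machinery itself had ratios near those of the typical gene. Of 19 measured readers, writers and erasers, 0 were higher and 3 lower in all barcodes (Mettl16, Igf2bp2 and Igf2bp3), and 0 and 0 of 18 in leukocyte barcodes, with medians of −0.14 (0.07 with TMM factors) and 0.02. Of all genes, 16.7% were lower in all barcodes and 6.58% in leukocyte barcodes. Ythdf1 and Ythdf3, the paralogs of Ythdf2, stood at 0.05 and 0.19. Mettl3, the methyltransferase, was at 7.53 and 7.30 CPM with a log2 ratio of −0.04. The Ythdf2 tag itself stood at −0.14 in all barcodes, 0.07 with TMM factors and −0.52 (−0.57 to −0.48) in leukocyte barcodes.

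Part of the 1803 lower genes was carried by the leukocyte-poor barcodes. Of 17 measured fibroblast genes, 15 were lower in all barcodes, against 16.7% of all genes. Their summed level went from 1917 to 356.5 CPM in all barcodes but from 61.06 to 24.46 CPM in leukocyte barcodes. Barcodes rich in these same genes were left out of the leukocyte barcodes by definition, so the lower fibroblast levels there follow from that choice. Col1a1, a collagen, was at 41.12 and 4.70 CPM, a log2 ratio of −3.12 (−3.41 to −2.86) in all barcodes, and at 1.41 and 0.557 CPM in leukocyte barcodes. Rhox5, an X-linked homeobox gene, had 725 and 69 UMIs in all barcodes, a ratio of −3.46, and 2 and 3 UMIs in leukocyte barcodes. Of the genes past the limit downward in all barcodes, 757 had too few UMIs in leukocyte barcodes to be counted. Of 12 carcinoma or epithelial markers 3 were measured, among them Cdh1 at 53.15 and 51.71 CPM and Epcam at 2.67 and 1.47 CPM. Of their control UMIs, 1327 of 1334 for Cdh1 and 67 of 67 for Epcam lay in leukocyte barcodes. The log2 ratios there were −0.46 and −1.26. Krt20, Cldn3 and Cldn4 were at 0 in both libraries. Hbb-bs, a hemoglobin gene of red cells, had 817 UMIs in control and 1 after IR, a fitted ratio of −8.74 (counting interval −15.06 to −7.27). In leukocyte barcodes it had 817 and 0 UMIs, at least 387-fold lower against a floor of 3 counts over the group. Only 0.6% of the control barcodes labelled cKO held a Hbb-bs UMI, and tumor control barcodes labelled WT held none (0 CPM). The ratio thus rests on few barcodes of 1 library. T cell genes were at 65.82 and 57.09 summed CPM over 13 genes in all barcodes. Their median log2 ratio was −0.25 in all barcodes and −0.71 in leukocyte barcodes.

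Genes that were lower both with and without these barcodes included several that are no marker of a fibroblast or of the cycle. Vcam1, an adhesion molecule, stood at −2.71 in all and −3.79 in leukocyte barcodes, and Fads2, a fatty acid desaturase, at −3.30 and −4.66. Igfbp4, which binds insulin-like growth factors, stood at −2.63 and −3.46, and Gas6, a ligand of the MERTK receptor, at −2.55 and −2.99. Csf2, which encodes the growth factor GM-CSF, stood at −3.27 and −3.64 but rested on 8.48 and 0.636 CPM in leukocyte barcodes. The replication histones Hist1h2ap and Hist1h2ae stood at −3.69 and −3.38 in all barcodes, and Cdca3 and Kif11, genes of mitosis, at −3.05 and −3.0. Reads of these near-identical histone copies may be split among the family. Cbr2, a carbonyl reductase, stood at −2.68 and −3.10. Vcam1 and Fads2 also had ratios of −3.27 and −2.84 in leukocyte barcodes labelled WT.

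**Figure D5:**
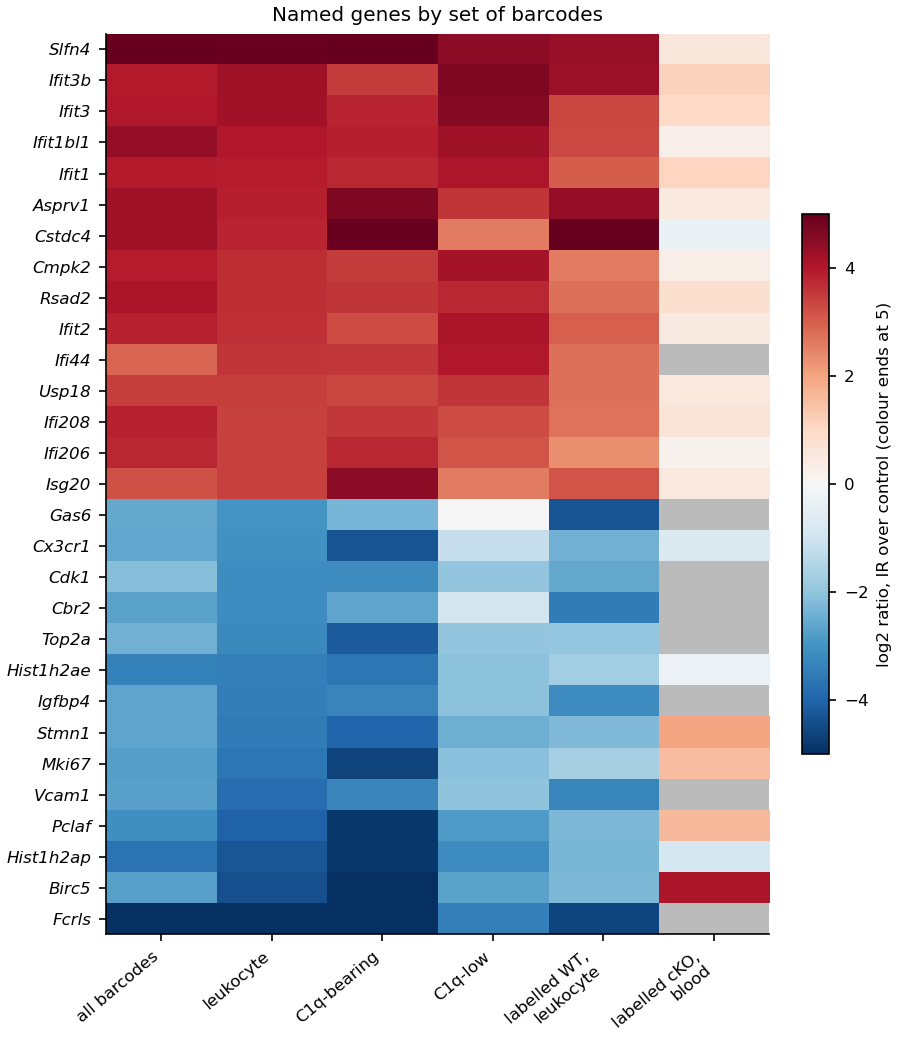
Log2 ratio of IR over control (colour, red higher and blue lower after IR) for the genes with the highest and lowest ratios in leukocyte barcodes labelled cKO, without Hbb-bs, in 6 sets of barcodes; grey cells had under 100 UMIs in the sets labelled WT or from blood. The 15 higher genes were red in every tumor set, Gas6 was near white in C1q-low barcodes, and in blood the strongest colours were the red of Birc5, Stmn1, Pclaf and Mki67.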

How the data were processed

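Droplet 3′ RNA libraries with hashtag antibodies were made from sorted tumor and blood cells. The authors deposited raw UMI count matrices with all barcodes (Cell Ranger, mm10, GENCODE vM23; the file headers name version 4 and the submitters' processing notes name version 6.0.1), with no normalization. Each matrix held 32285 genes. UMIs of the selected barcodes were summed per library, scaled to CPM, and compared as log2 ratios with a prior of 1 UMI per library. Genes with at least 100 UMIs in both sums together were counted, and a log2 ratio of 1 was the limit. With 1 library per group no test was made. Intervals of single genes and of shares are exact, at 95%, and cover counting error only. Ranges beside list medians are the medians of the members' lower and upper bounds. Depth was 25098822 and 26570770 UMIs in the compared sums. The named genes were the 15 highest and 15 lowest ratios with at least 500 UMIs, in all and in leukocyte barcodes, and list members. The members, 34 gene lists and limits were chosen with earlier results of these data known, and 2 lists by name pattern (ribosomal proteins, oxidative phosphorylation) and the C1q-low and leukocyte TMM settings were added after the data were seen. Of 654 list genes, 9 did not match a row and were not analysed. A few list members entered the counts and medians and are not reported by name here. Positions came from GENCODE vM21 on the same build for 46 of 46 named genes. Doublets were not removed; leaving out the 6% of barcodes with the highest Scrublet scores (scanpy 1.11.5) was an alternative. TMM factors came from edgeR 4.0.16. Computation used Python 3.11.15, numpy 2.4.6, scipy 1.17.1 and pandas 2.3.3, and was tested on simulated data.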

Additional observations from a re-analysis of the deposited data

Results flagged for a closer look

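In leukocyte barcodes the median log2 ratio of the NF-κB genes after IR was −0.17 in cells labelled cKO and 0.19 in those labelled WT, and that of the 5 NF-κB negative regulators −0.21 and 0.23. The signs were opposite with 1 library per group. The difference was not tested, and with TMM factors the medians of the cells labelled cKO were −0.06 and −0.10.

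Tumor barcodes with neither label were not used in the comparison and held Lyz2 at levels well above the 114.5 and 141.6 CPM of the cells labelled cKO. In control, Lyz2 was at 3036 CPM in the 431 barcodes with more B0302 than B0301 and at 7033 CPM in the other 1618. After IR it was at 2335 CPM in 501 barcodes with more B0302 and at 7476 CPM in the other 799. These are values without a test.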

How the results depend on the processing

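Of the 276 list genes past the limit, 11 turned their sign under some alternative that left at least 100 UMIs for them. Phlda3 went from −1.08 to between 1.97 and 2.83 in the 4 settings of leukocyte, C1q-bearing or C1q-low barcodes. In leukocyte barcodes Ptges went from −1.18 to 0.71, Ly6c1 from −1.40 to 0.05 and Igf2bp2 from −1.35 to 0.76, also with TMM factors. In C1q-low barcodes Mrc1 (−1.02), Ptges, Cd63 (−1.25), Cd36 (1.11), Ccl5 (1.09) and Gzma (1.05) became 0.20, 0.07, 0.27, −0.10, −0.01 and −0.01, and in C1q-bearing ones Mmp9 (1.23) and Tbc1d4 (1.25) −0.47 and −1.05. The list medians and the genes with the highest and lowest ratios that were past the limit kept their sign. The 1803 lower genes became 766 with a minimum of 500 UMIs, 641 in leukocyte barcodes, 630 in C1q-bearing, 223 in C1q-low and 508 in leukocyte barcodes with TMM factors. The 562 higher genes became 846 with TMM factors and 290 in C1q-low barcodes. A minimum of 20 UMIs gave 804 higher and 2639 lower genes, and TMM factors 1421 lower. The interferon-stimulated median of 2.49 became 2.70 with TMM factors, 2.25 with equal weight for each barcode, 2.34 at a hashtag ratio of 2, 2.28 in leukocyte barcodes and 1.94 in C1q-low barcodes. The proliferation median of −2.13 became −2.36 with equal weight, −1.89 at a hashtag ratio of 2, −2.47 in leukocyte barcodes, −2.87 in C1q-bearing, −1.23 in C1q-low and −2.35 in leukocyte barcodes with TMM factors. The smaller number of genes with enough UMIs contributes to the lower counts in subsets, and otherwise the cause was not tested. Of the alternative values of these 4 summaries, 46 stayed within 1.5 times a count or within the range beside a median and 18 did not. Of those of single genes and lists, 822 stayed within the interval of the gene or the range beside the list median and 389 did not. The alternatives in C1q-low barcodes and in leukocyte barcodes with TMM factors were chosen after seeing the data. No paired analysis was possible because each group was 1 library and the libraries carry no replicate number, and for the same reason no replicate could be left out. Genes near the minimum of 100 UMIs had the widest counting intervals, and no interval covers the spread between mice.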
